A study of Rattus norvegicus with 33 samples.

Results

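Glutathione is the main small thiol antioxidant of the cell, and 10 genes that make it, recycle it or use it were followed across rat soleus muscle. They were chosen by name, with earlier results of these data known. They were the peroxidases Gpx1, Gpx3 and Gpx4, the transferases Gstm2, Gstm5 and Mgst1, the synthesis enzymes Gclc, Gclm and Gss, and the reductase Gsr. All 10 were found among 14506 genes that had a row with a single symbol in the deposited table, each with exactly 1 row. The level of each is a log2 intensity, so a difference of 1 is a doubling.

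Glutathione is built in a pair of steps, the first by glutamate-cysteine ligase (catalytic subunit Gclc, modifier subunit Gclm) and the next by glutathione synthetase (Gss). Glutathione peroxidases spend it to reduce peroxides: Gpx1 is the common cytosolic form, Gpx3 is secreted and Gpx4 acts on oxidised membrane lipids. The oxidised product is turned back by glutathione reductase (Gsr), while the mu-class transferases Gstm2 and Gstm5 and the microsomal transferase Mgst1 join glutathione to reactive compounds. Gclc, Gclm and Gsr are textbook targets of the transcription factor Nrf2, which acts through antioxidant response elements. Slow, oxidative muscle such as soleus carries a high peroxide load and is rich in Gpx1.

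Soleus of female Wistar rats was measured in 11 groups of 3 animals, 1 array per animal. Sham-SCI animals, 9 weeks old at surgery, had a laminectomy, an intact cord and no tenotomy. SCI animals had their cord cut at that age between T9 and T10, then surgery for a stimulator implant, without the device, and a left gastrocnemius tenotomy 14 weeks later, and soleus was taken 21 days after that, or 17 weeks after transection. SCI-ES animals received the stimulator and, from 16 weeks after transection, nerve stimulation at 40 Hz for 1 hour per day over 1, 3 or 7 days, so the implant surgery was closer to sampling in the 1 and 3 days groups than in SCI. GA animals had the distal gastrocnemius tendon cut at 22 to 23 weeks of age, which overloads the soleus, and Sham-GA animals had the same operation without the cut; both were studied after 1, 3 and 7 days. The transected groups therefore all carried the tenotomy that Sham-SCI lacked, and transection and tenotomy cannot be told apart between them. In whole muscle, fewer cells of a type and less RNA per cell cannot be told apart either.

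Pairs of arrays correlated at 0.994 at most, so no array was a copy of another. The second Sham-GA 3 days array stood apart, with a correlation of 0.964 to its least similar group mate. In Sham-SCI the mean of 9 fast-fiber genes was 10.41, 13.12 and 12.05 in the 3 arrays, so the second already sat at the level of the transected muscles. Slow-fiber genes, which define soleus, averaged 12.31 to 12.79 in Sham-SCI, 12.004 to 12.76 in the 18 arrays of the GA experiment and 11.22 to 11.61 in SCI. Where a call turned on either of these arrays, the value without it is given.

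Windows of 250 bases at the RefSeq gene start (build GRCr8) were searched for the core letters of the antioxidant response element. These were TGACNNNGC and the reverse complement GCNNNGTCA. The letters occurred in 3373 of 33469 such windows (10.1%), and in 2 of the 9 genes with a window, Gstm5 and Gclm. Gsr had no window. These 2 sequences are shown because they hold the letters. Gclc is shown because, like Gclm, it was lower at 7 days than at 1 day after gastrocnemius surgery. Capitals mark the matches.
Gstm5, chr2:198219519-198219768, plus strand: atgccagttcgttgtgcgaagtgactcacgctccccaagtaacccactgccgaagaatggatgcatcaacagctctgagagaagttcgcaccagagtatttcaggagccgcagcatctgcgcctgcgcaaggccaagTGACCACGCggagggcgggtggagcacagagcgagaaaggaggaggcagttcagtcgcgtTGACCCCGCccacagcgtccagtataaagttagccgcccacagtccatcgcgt
Gclm, chr2:213031885-213032134, plus strand: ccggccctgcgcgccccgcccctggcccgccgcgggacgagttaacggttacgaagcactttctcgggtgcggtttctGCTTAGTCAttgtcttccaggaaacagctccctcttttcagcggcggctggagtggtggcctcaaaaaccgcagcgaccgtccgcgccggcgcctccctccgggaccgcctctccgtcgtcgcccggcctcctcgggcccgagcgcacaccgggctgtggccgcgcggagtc
Gclc, chr8:87510226-87510475, plus strand: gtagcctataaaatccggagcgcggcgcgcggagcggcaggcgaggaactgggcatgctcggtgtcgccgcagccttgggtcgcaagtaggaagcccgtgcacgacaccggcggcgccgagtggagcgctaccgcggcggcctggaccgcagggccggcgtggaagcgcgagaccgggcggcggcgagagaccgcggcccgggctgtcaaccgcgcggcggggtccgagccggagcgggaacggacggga
Gstm5 held TGACCACGC and TGACCCCGC, starting 113 and 53 bases before the gene start, both on the gene's strand. Gclm held 1 match, GCTTAGTCA, starting 172 bases before the gene start on the other strand. The Gclc window held none, but it ran past the gene start at 87510251, so most of it lay inside the gene. The windows of Gstm2 and Gss also ran into the gene. Gpx4 had more than 1 window, of which 1 ran into the gene and another lay inside it. The share of 10.1% is counted over windows and the 2 of 9 over genes. A match in these letters is a description of the window and not a measured binding site.

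Gpx1 fell and Gstm5 rose in SCI against Sham-SCI, the comparison that asks how long-paralysed muscle differed from intact muscle. Gpx1 was 12.56, 12.06 and 12.31 in Sham-SCI and 10.93, 11.03 and 11.12 in SCI. The groups lay far apart, and the mean was 2.44-fold lower in SCI (log2 difference -1.29 ± 0.18 SE, 95% confidence interval -1.67 to -0.90, limma adjusted p = 0.0113). Gstm5 was 9.42, 9.55 and 9.73 in Sham-SCI and 10.62, 10.90 and 10.58 in SCI. Every SCI array exceeded every Sham-SCI array, and the mean was 2.20-fold higher (log2 difference 1.14 ± 0.16 SE, limma adjusted p = 0.0113). A call required an adjusted p under 0.05 over all genes and a change of at least 1.5-fold. At that rule 58 of 14456 genes were called (0.401%), of which 23 rose (0.159%) and 35 fell (0.242%), while 2 of the 10 glutathione genes were called, 1 in each direction. Without the first SCI array or the third Sham-SCI array the adjusted p of Gpx1 was 0.0533 or 0.0712, and without the second SCI array that of Gstm5 was 0.0511, so each of these arrays decided a call.

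The low Gpx1 level held in every transected muscle. Across SCI and the 3 SCI-ES groups it ranged from 10.64 to 11.57 in 12 arrays, and across Sham-SCI and the 6 GA and Sham-GA groups it ranged from 12.06 to 12.56 in 21 arrays. Of 14506 genes, 8 (0.0551%) had all 12 transected arrays below all 21 others. The group means ran from SCI (11.03 ± 0.10, SD, n = 3) through SCI-ES 7 days (11.07 ± 0.42) and SCI-ES 1 day (11.25 ± 0.13) to SCI-ES 3 days (11.47 ± 0.08), and then stepped up by 0.75 to GA 1 day (12.22 ± 0.12). The steps among the 7 intact groups were all smaller than the larger SD of the neighbours. Gpx1 is abundant in red cells, and the mean of 6 erythroid genes was 7.14 to 8.44 in Sham-SCI and 6.81 to 8.72 in SCI, ranges that overlapped. The mean of 10 slow-fiber genes was lower in all 3 SCI arrays than in all 3 Sham-SCI arrays, which ranged from 12.31 to 12.79. It was within that range in the second SCI-ES 1 day array (12.42) and the third SCI-ES 3 days array (12.50). Gpx1 was 11.40 and 11.42 in these arrays. The other stimulated arrays had slow-fiber means below the Sham-SCI range. Over the 15 arrays of the spinal cord experiment, Gpx1 had a Pearson correlation of 0.713 with the slow-fiber mean. It was -0.737 with the fast-fiber mean and -0.062 with the erythroid mean. Over the 18 arrays of the GA experiment these were 0.154, 0.472 and 0.107. The part of none of these lists in the Gpx1 result was tested.

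Gpx3, the secreted peroxidase, was 10.26, 10.14 and 10.83 in Sham-SCI and 11.09, 11.81 and 11.13 in SCI. All SCI arrays were higher, but the difference of 0.93 ± 0.25 on the log2 scale did not pass the test (limma adjusted p = 0.119). Gpx4, the lipid peroxidase, was 8.74, 9.07 and 8.90 in Sham-SCI and 8.88, 8.79 and 8.95 in SCI. These values overlapped, and the difference of -0.03 had a 95% confidence interval of -0.32 to 0.26. RefSeq lists 4 Gpx4 pseudogenes, whose sequence could share probes with it.

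Gstm2, a mu-class transferase found in muscle, had the largest difference of the 10 genes and also the widest spread among controls. It was 7.85, 10.45 and 8.74 in Sham-SCI and 10.98, 11.62 and 10.93 in SCI. All SCI arrays were higher and the mean was 4.48-fold higher, but the test was not passed (log2 difference 2.16 ± 0.45 SE, limma adjusted p = 0.0565). The control array with the high value was the second, the array with fast-fiber genes at 13.12. Over the 3 controls the means of fast-fiber, of pericyte and smooth muscle, and of Schwann cell genes had the same order as Gstm2. The slow-fiber, macrophage and fibroblast means had the reverse order. The part of these lists in the Gstm2 values was not tested. Without the second Sham-SCI array the Gstm2 difference was 2.88 and the limma adjusted p was 0.000765. That was the low end of a range up to 0.219 when each of the 6 arrays was left out in turn. With all arrays Gstm2 was also called when the genes of lowest variance were left out (limma adjusted p = 0.0338). Mgst1 was 9.23, 8.37 and 8.80 in Sham-SCI and 8.80, 9.14 and 9.09 in SCI. Its groups overlapped, with a difference of 0.21 (95% confidence interval -0.94 to 1.36). Transferase genes of the mu class resemble each other in sequence, so probes of Gstm2 and Gstm5 could in part report their relatives.

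Among the synthesis and recycling genes, Gsr was the furthest from its control level. It was 9.06, 8.96 and 8.69 in Sham-SCI and 7.87, 8.19 and 8.24 in SCI, with no overlap, and the mean was 1.75-fold lower. The difference of -0.81 ± 0.20 did not pass the test (limma adjusted p = 0.0958). Gclc differed by -0.37 ± 0.13 (adjusted p = 0.205), Gclm by -0.08 ± 0.16 (adjusted p = 0.879) and Gss by -0.18 ± 0.18 (adjusted p = 0.699), each with overlapping arrays. In all, groups did not overlap for 5 of the 10 genes, against 22.3% of all genes, and 6 of 10 had an unadjusted p under 0.05, against 14.6%. Because the 10 genes were chosen with earlier results of these data known, these shares are descriptions and not a test. The median size of the difference, regardless of sign, was 0.59 over the 10 genes and 0.14 over all genes. With each array centred on its median the all-gene median of the SCI difference was -0.10, so differences of that size are not read as changes.

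**Figure D1:**
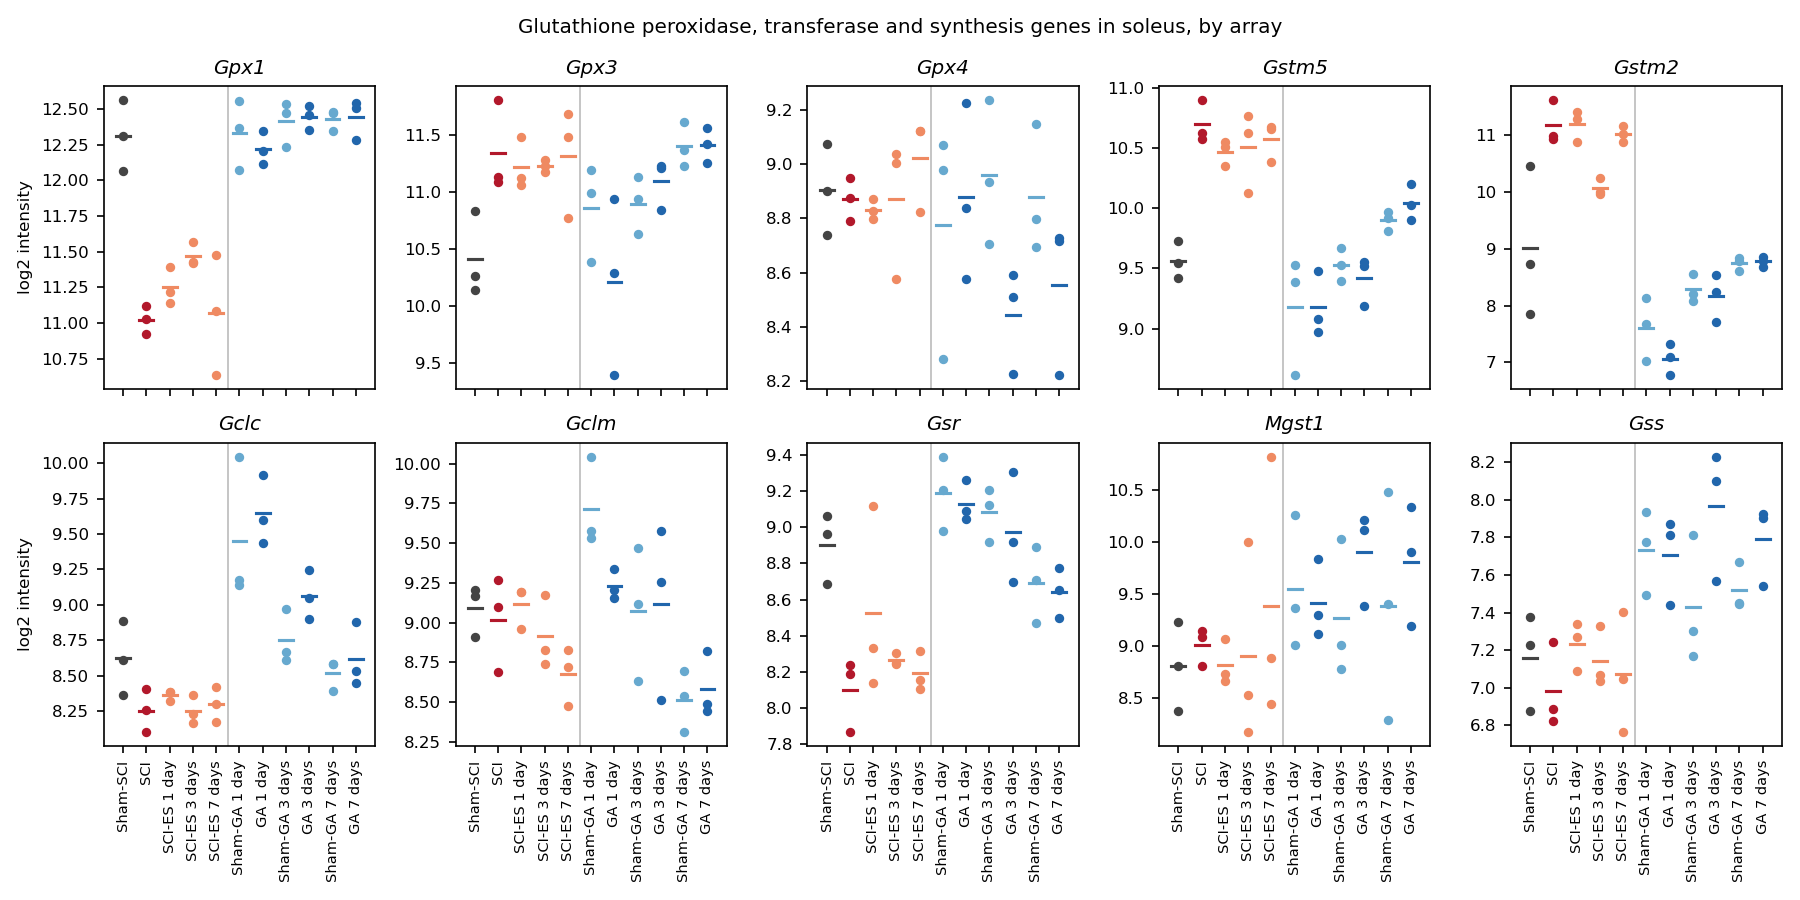
Log2 intensity (vertical axis, a separate range for each gene) of the 10 genes in the 11 groups (horizontal axis). Points are the 3 arrays of a group, short lines are group means, and the grey line separates the spinal cord experiment from the GA experiment. Gpx1 was between 10.64 and 11.57 in the transected arrays and between 12.06 and 12.56 in all others.

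Stimulation was compared with SCI to ask whether exercise of the paralysed muscle altered these genes. None of the 10 genes was called after 1, 3 or 7 days. Gpx1 was 11.22, 11.40 and 11.14 after 1 day, 11.57, 11.43 and 11.42 after 3 days and 11.09, 11.48 and 10.64 after 7 days. After 1 and 3 days all arrays were above all SCI arrays, by 0.23 (95% confidence interval -0.16 to 0.61) and 0.45 (0.06 to 0.83) on the log2 scale, yet all of them stayed below the lowest Sham-SCI array. After 7 days the arrays overlapped with SCI and the difference was 0.04 (-0.34 to 0.43). The limma adjusted p of Gpx1 was 0.825 after 1 day and 1.00 after both 3 and 7 days.

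Gstm2 was 10.25, 9.99 and 9.96 after 3 days of stimulation, below all 3 SCI arrays, and differed by -1.11 (95% confidence interval -2.09 to -0.13, limma adjusted p = 1.00). After 1 day its difference was 0.02 and after 7 days it was -0.15. Gsr was 9.12, 8.33 and 8.14 after 1 day, where the first array lay above all Sham-SCI arrays and the others lay below them, and differed by 0.43 (-0.01 to 0.87). After 3 days it was 8.24, 8.25 and 8.31, above all SCI arrays by only 0.17 on average. Gstm5 was below SCI in all arrays after 1 day, by -0.23 (adjusted p = 0.790). After 7 days the lowest difference was that of Gclm (-0.34) and the highest that of Mgst1 (0.37).

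Over all genes, limma called 0 of 14456 at each of the 3 times (0.0%), while 1053, 444 and 410 genes (7.28%, 3.07% and 2.84%) had an unadjusted p under 0.05. The methods' variance test, which asks whether any group of the spinal cord experiment differs, called 0 genes at each time after Benjamini-Hochberg adjustment. Of the 10 glutathione genes, 0, 2 and 0 had an unadjusted p under 0.05, and 2, 3 and 0 had arrays that did not overlap with SCI, against 11.4%, 9.12% and 7.57% of all genes. The intervals show what 3 arrays a group could resolve: over the 10 genes and 3 times they reached from -2.09 to 1.53 on the log2 scale. The 3 stimulation comparisons and the comparison of SCI with Sham-SCI all used the same 3 SCI arrays.

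The 7 days stimulation group was also set against Sham-SCI, to ask how far it stood from intact muscle, and Gpx1 and Gstm5 were again the genes called. Gpx1 was lower (log2 difference -1.24 ± 0.18 SE, limma adjusted p = 0.0122) and Gstm5 was 10.38, 10.68 and 10.65, or 2.01-fold higher (1.01 ± 0.16, adjusted p = 0.0189). Gstm2 was 10.88, 11.17 and 11.02 and differed by 2.01 (adjusted p = 0.0608), Gpx3 by 0.90 (adjusted p = 0.112) and Gsr by -0.71 (adjusted p = 0.118). Without the second Sham-SCI array Gstm2 was called, with a difference of 2.73 (limma adjusted p = 0.00141, the low end of a range up to 0.2197 over the 6 arrays left out in turn), and it was also called with the genes of lowest variance left out (adjusted p = 0.0350). Gpx3 was called without the third SCI-ES 7 days array (1.17, adjusted p = 0.0218). Gclm was 8.83, 8.48 and 8.72, below all 3 Sham-SCI arrays, with a difference of -0.42 (adjusted p = 0.247). The others differed by -0.33 (Gclc), 0.12 (Gpx4), 0.58 (Mgst1) and -0.09 (Gss). In this comparison 2 of the 10 genes were called, against 101 of 14456 genes (0.699%), 35 higher (0.242%) and 66 lower (0.457%). Both calls rested on single arrays. That of Gpx1 was lost without the first or the third Sham-SCI array or the first SCI-ES 7 days array (adjusted p of 0.0597, 0.0922 and 0.0826). That of Gstm5 was lost without any of these 3 arrays or the second SCI-ES 7 days array (adjusted p of 0.0867, 0.0881, 0.0636 and 0.109).

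**Figure D2:**
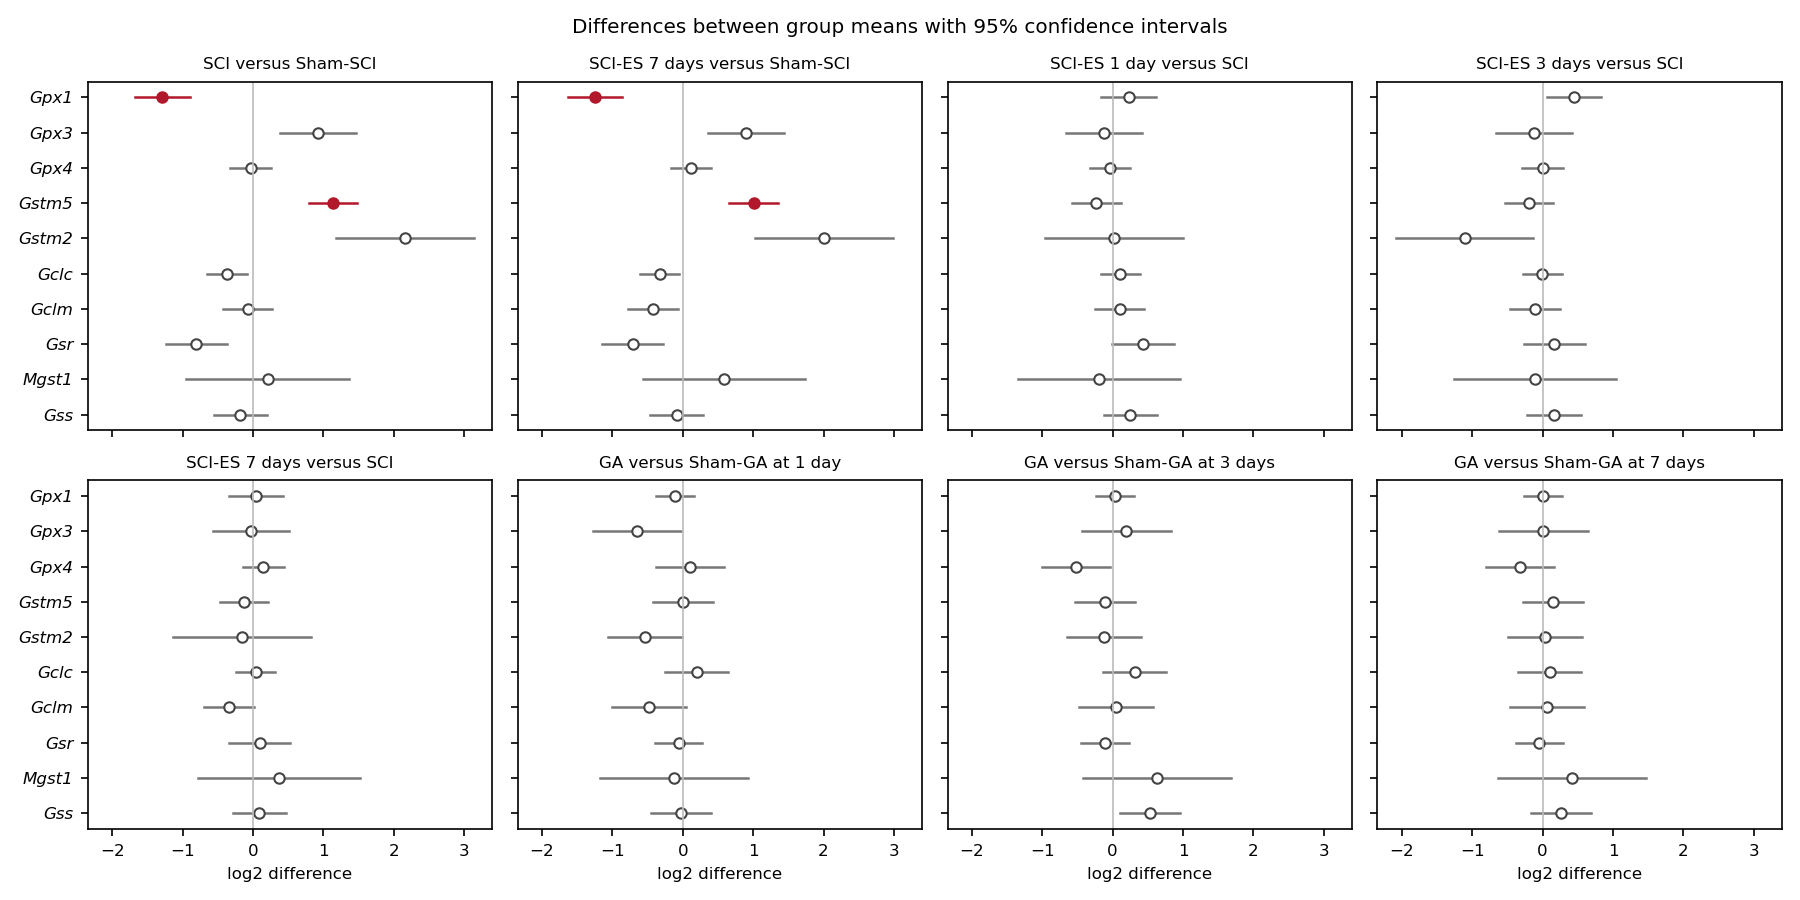
Log2 difference between group means (horizontal axis, with 95% confidence intervals from limma) of the 10 genes (vertical axis) in 8 comparisons. Filled red points passed the call rule, which Gpx1 and Gstm5 did in both comparisons with Sham-SCI and no gene did in the comparisons of stimulation or of GA.

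Overload of an innervated soleus was tested by comparing GA with Sham-GA at each time. None of the 10 genes was called at 1, 3 or 7 days. After 1 day Gpx3 was 9.40, 10.93 and 10.29 in GA and 10.38, 10.99 and 11.19 in Sham-GA, a difference of -0.65 (95% confidence interval -1.28 to -0.02, limma adjusted p = 0.351), and Gclc had the highest difference at 0.20. Gclm was 9.16, 9.34 and 9.20 in GA and 9.53, 9.58 and 10.04 in Sham-GA, with no overlap, and differed by -0.49 (adjusted p = 0.404).

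After 3 days Gpx4 was 8.51, 8.59 and 8.23 in GA and 9.24, 8.71 and 8.93 in Sham-GA. The arrays did not overlap, and the difference was -0.52 (-0.9998 to -0.0325, limma adjusted p = 0.293). Mgst1 had the highest difference at 0.63 (-0.42 to 1.68). Gss differed by 0.54 (adjusted p = 0.288), and without the Sham-GA array that stood apart it differed by 0.73 and was called (adjusted p = 0.0385), in a fit where 1286 genes were called in place of 0. After 7 days the differences lay between -0.32 (Gpx4) and 0.42 (Mgst1). Averaged over the 3 times they lay between -0.25 (Gpx4) and 0.31 (Mgst1).

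Over all genes limma called 8 of 14451 at 1 day (0.0554%), all higher in GA, and 0 at 3 days, at 7 days and for the mean (0.0% each), where 2383, 380 and 2782 genes had an unadjusted p under 0.05. The methods' variance test, here of the main effect of GA, called 0 genes in these 3 after Benjamini-Hochberg adjustment. Of the 10 genes, 2, 2 and 0 had an unadjusted p under 0.05 at 1, 3 and 7 days, against 13.7%, 16.5% and 2.63% of all genes, and 1, 1 and 0 had arrays that did not overlap, against 16.6%, 13.5% and 11.2%. The effect of GA at 7 days minus that at 1 day ran from -0.43 (Gpx4) to 0.66 (Gpx3), with a lowest adjusted p of 0.715, and limma called 0 of all genes (0.0%), of which 1193 (8.26%) had an unadjusted p under 0.05.

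The effects of stimulation and of GA were also subtracted from each other at matched days. The differences lay between -0.23 (Gstm5) and 0.58 (Gclm) at 1 day, between -0.98 (Gstm2) and 0.52 (Gpx4) at 3 days and between -0.41 (Gclm) and 0.47 (Gpx4) at 7 days. None was called, with lowest limma adjusted p-values of 0.427, 0.528 and 1.00. Over all genes 8, 0 and 0 of 14453 were called (0.0554%, 0.0% and 0.0%), and 1875, 1369 and 454 had an unadjusted p under 0.05.

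Between 1 and 7 days after gastrocnemius surgery 5 of the 10 genes changed, over muscles with and without the tendon cut. This comparison, 7 days against 1 day over both arms, was added after the values had been seen. Gclc, the catalytic subunit of the first step of synthesis, was 10.05, 9.14 and 9.17 in Sham-GA 1 day and 9.92, 9.43 and 9.60 in GA 1 day. At 7 days it was 8.39, 8.58 and 8.58 in Sham-GA and 8.45, 8.53 and 8.88 in GA. All 6 later arrays were below all 6 earlier ones, and the mean was 1.98-fold lower (log2 difference -0.98 ± 0.15 SE, limma adjusted p = 0.00026). Its partner Gclm went from 9.53, 9.58 and 10.04 in Sham-GA and 9.16, 9.34 and 9.20 in GA to 8.70, 8.54 and 8.31 and 8.44, 8.82 and 8.49. Again no arrays overlapped, and the mean was 1.90-fold lower (-0.92 ± 0.17, adjusted p = 0.00138).

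The mu-class transferases and Gpx3 went the other way. Gstm2 was 7.02, 7.67 and 8.14 in Sham-GA and 6.78, 7.33 and 7.10 in GA at 1 day, and 8.62, 8.84 and 8.78 and 8.86, 8.69 and 8.79 at 7 days, 2.68-fold higher (1.42 ± 0.18, limma adjusted p = 4.81e-05). Gstm5 was 8.62, 9.39 and 9.53 in Sham-GA and 8.97, 9.48 and 9.08 in GA at 1 day, and 9.92, 9.81 and 9.97 and 10.20, 9.90 and 10.02 at 7 days, 1.73-fold higher (0.79 ± 0.14, adjusted p = 0.000917). Gpx3 was 11.61, 11.22 and 11.37 in Sham-GA and 11.41, 11.26 and 11.56 in GA at 7 days, all above the highest array of 1 day at 11.19, and 1.83-fold higher (0.87 ± 0.21, adjusted p = 0.00694). Each of the 5 differences kept its call when any of the 12 arrays was left out.

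Gsr was between 8.98 and 9.39 at 1 day and between 8.47 and 8.89 at 7 days in the 2 arms, with no overlap. Its difference of -0.50 ± 0.11 had a limma adjusted p of 0.00482, and at 1.41-fold it was under the fold minimum, so it was not called. Gpx1 (0.16), Gpx4 (-0.11), Gss (-0.07) and Mgst1 (0.12) did not pass the test, with adjusted p-values between 0.225 and 0.852. Thus 5 of 10 genes were called, 3 higher and 2 lower, against 1289 of 14451 genes (8.92%), of which 834 were higher (5.77%) and 455 lower (3.15%). Arrays did not overlap for 6 of the 10 genes, against 11.2% of all genes. The order held within both arms: in GA and in Sham-GA alike, all 3 arrays of 7 days were beyond all 3 of 1 day for these 6 genes. At 3 days the means of Gclc were 8.75 in Sham-GA and 9.06 in GA, and those of Gstm2 were 8.29 and 8.16, between the means of 1 and 7 days. Whether arrays of a day were processed together is not given in the sources used here.

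**Figure D3:**
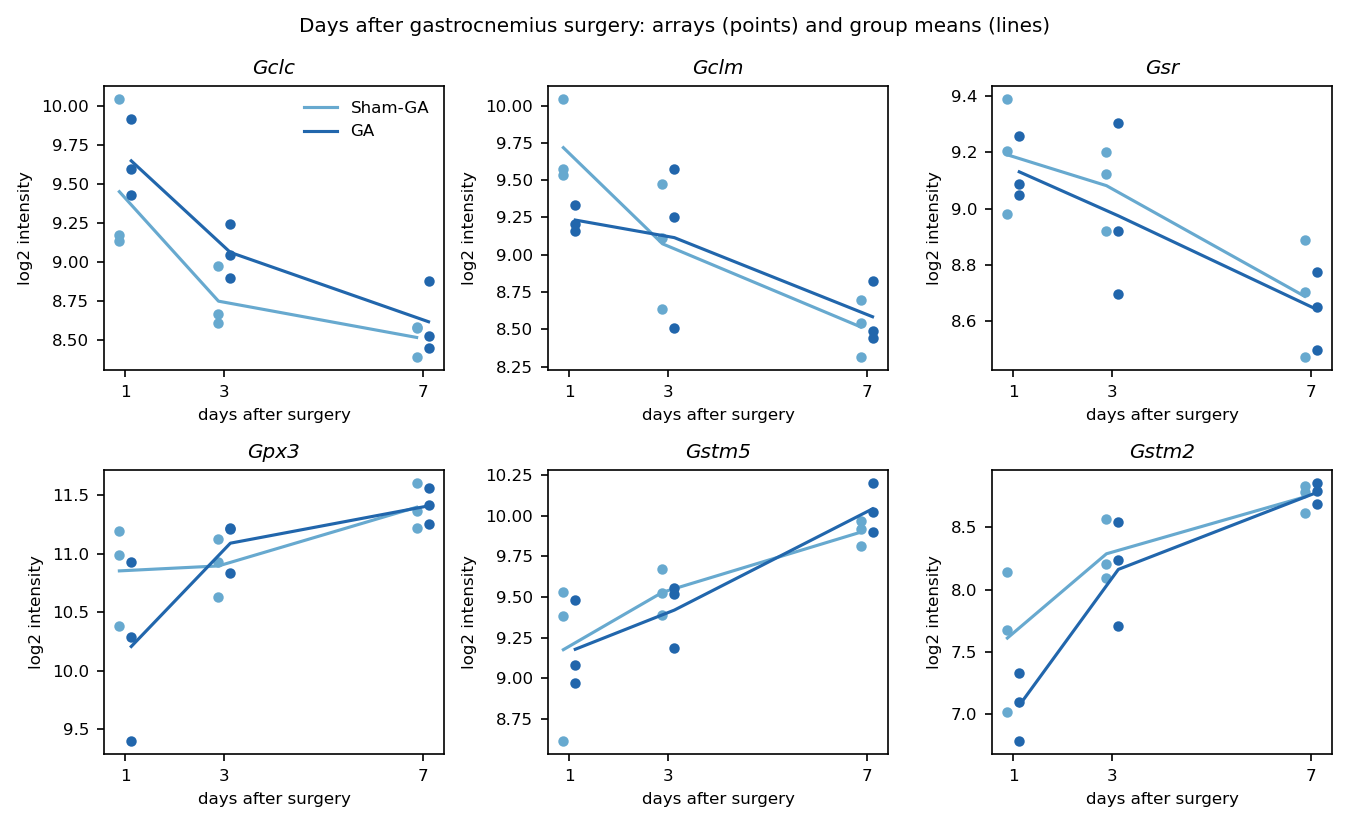
Log2 intensity (vertical axis, a separate range for each gene) of 6 genes by days after GA or Sham-GA surgery (horizontal axis). Points are arrays, 3 per arm and day, and lines join the arm means. Gclc, Gclm and Gsr are lower and Gpx3, Gstm5 and Gstm2 higher at 7 days than at 1 day in both arms.

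Other genes of the pathway were read from lists. Of 52 further glutathione genes, 45 had a row. In SCI against Sham-SCI none of the 45 was called and their median difference was 0.00, from -0.91 for Gsta1, an alpha-class transferase, to 1.41 for Slc7a11, the cystine transporter that feeds synthesis. Both had an adjusted p above the threshold, 0.0641 and 0.402. After 7 days of stimulation Gsta1 was lower than in Sham-SCI (-1.16 ± 0.20, limma adjusted p = 0.0221) and Gstm1, a mu-class relative of Gstm2 and Gstm5, was higher (1.17 ± 0.22, adjusted p = 0.0403). Gsta1 averaged 10.83 in Sham-SCI and 9.67 in SCI-ES 7 days, and Gstm1 averaged 8.68 and 9.85. Both had arrays that did not overlap.

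From 1 to 7 days after GA or Sham-GA surgery, 6 of the 45 rose and 3 fell. The largest rises with arrays that did not overlap were those of Gpx7 (1.69 ± 0.23, limma adjusted p = 0.0001) and Gpx8 (1.58 ± 0.26, adjusted p = 0.00048), peroxidases of the endoplasmic reticulum, and that of Ptges (0.81), a glutathione-dependent prostaglandin synthase. Of 21 other antioxidant genes with a row, 3 rose and 3 fell. Txnrd1, the thioredoxin reductase, fell (-1.06 ± 0.13, adjusted p = 4.9e-05), as did Srxn1, sulfiredoxin (-0.61), while Sesn3, a sestrin (1.204), Sod3, the extracellular superoxide dismutase (1.15), and Prdx4, a peroxiredoxin of the secretory pathway (1.02), rose.

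Of the 21 genes listed as Nrf2 and its regulators and targets, all had a row, 19 were below 0 between 7 days and 1 day, and 3 fell and none rose at the call rule. Nqo1, a quinone reductase, fell (-1.36 ± 0.25, limma adjusted p = 0.00129) and so did Maff, a small Maf partner of Nrf2 (-0.71 ± 0.09, adjusted p = 4.2e-05). The list's median was -0.42, against -0.04 over all genes. In SCI against Sham-SCI, 16 of the 21 were below 0 with a median of -0.15 and none called. Nqo1 had the lowest difference (-1.36, adjusted p = 0.126), and Akr1b8 the highest (0.63, adjusted p = 0.314). Of 20 selenoprotein genes with a row, none was called in SCI against Sham-SCI, where the extremes were Sephs2 (-0.31) and Selenom (0.60). From 1 to 7 days after surgery Selenop, the selenium carrier (1.37), and Selenom (1.36) rose and Eefsec, the elongation factor for selenocysteine, fell (-0.71). In the other antioxidant list the extremes in SCI were Txnrd1 (-0.58) and Sod3 (0.56), neither called.

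**Figure D4:**
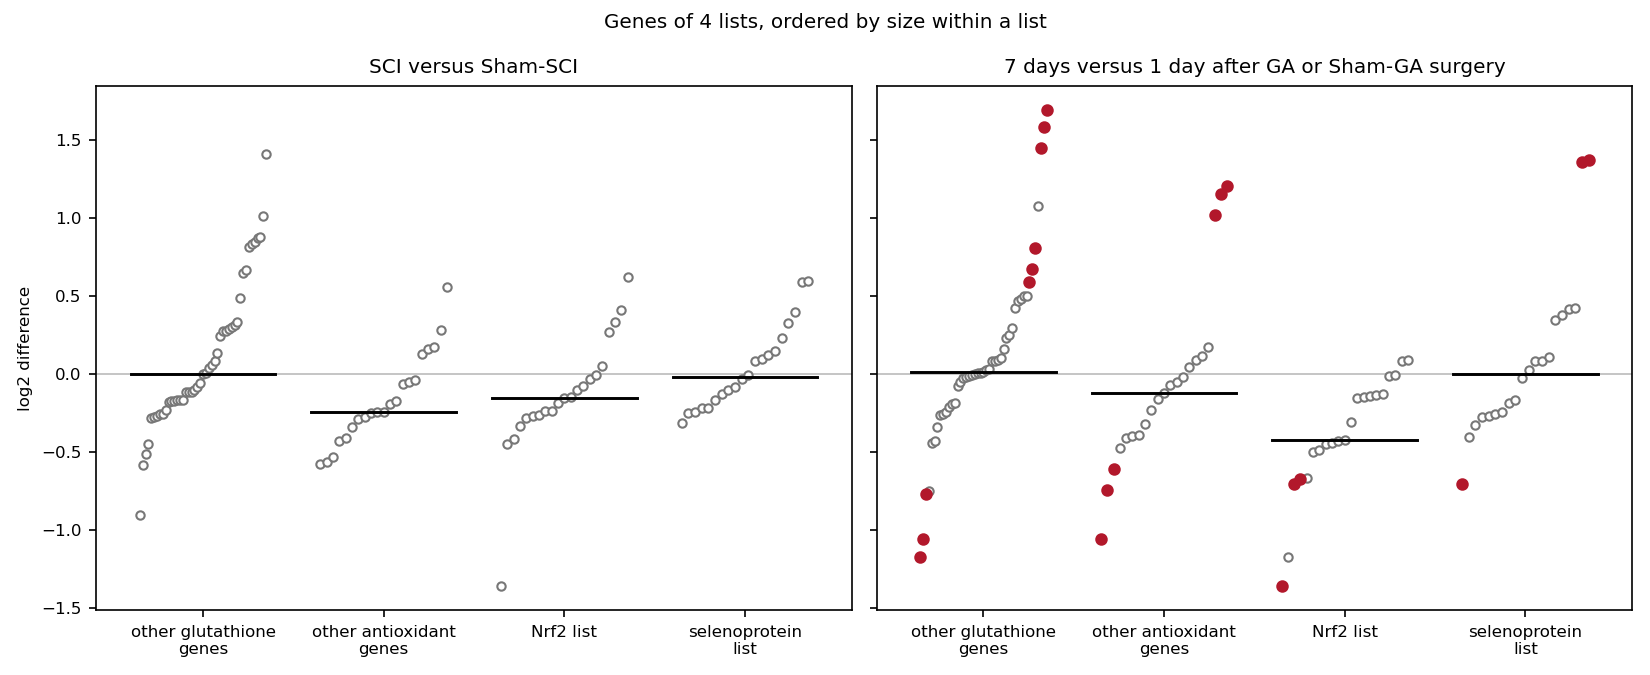
Log2 difference (vertical axis) of the genes of 4 lists (horizontal axis, 45, 21, 21 and 20 genes, ordered by size within a list) in SCI against Sham-SCI (left) and in 7 days against 1 day after surgery (right). Red points passed the call rule and black lines are list medians. No gene of the lists was called on the left, and the Nrf2 list median was -0.42 on the right.

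Markers of other cell types moved with several of these results. In SCI against Sham-SCI all 10 fibroblast genes, all 10 macrophage genes and all 9 fast-fiber genes were above 0, with median differences of 1.34, 0.51 and 1.08, and all 10 slow-fiber genes were below 0 with a median of -1.10, none called. The other lists had medians of 0.185 (endothelial), 0.01 (pericyte and smooth muscle), 0.14 (Schwann cell), 0.19 (satellite cell), 0.17 (adipocyte), -0.16 (neutrophil) and -0.13 (erythroid), also with none called. The fibroblast mean was 9.18 to 9.62 in Sham-SCI and 10.52 to 10.93 in SCI. The macrophage means overlapped (7.24 to 9.36 in Sham-SCI and 8.53 to 9.18 in SCI). The fast-fiber means overlapped too (10.41 to 13.12 and 12.74 to 13.07). Between 1 and 7 days after surgery 8 of 10 fibroblast genes rose, with the list mean going from 9.32 to 10.11 over the 6 earlier arrays to 11.49 to 11.91 over the 6 later ones, and 5 of 6 neutrophil genes fell. The pericyte and smooth muscle mean went from 8.23 to 8.49 up to 8.62 to 9.26, with 3 of 7 genes rising, and the Schwann cell mean from 6.35 to 6.51 up to 6.58 to 6.88, with 1 of 4 rising. The means of the other lists overlapped between the days. Of these, 3 of 10 macrophage genes rose and 1 fell, 3 of 9 adipocyte, 2 of 7 endothelial and 1 of 10 slow-fiber genes rose, and 2 of 5 satellite cell genes fell. The part of these lists in the values of Gpx3, Gstm2, Gstm5, Gclc, Gclm and Gsr was not tested.

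Marker means and gene levels can be set side by side in single arrays. The neutrophil mean at 1 day was 7.10, 5.26 and 4.88 in Sham-GA and 7.59, 6.29 and 7.01 in GA, and 4.74 to 4.99 in the 6 arrays of 7 days. The first Sham-GA 1 day array, with the highest neutrophil mean of its group, had Gclc at 10.05, Gclm at 9.53 and Gstm2 at 7.02. The third, with the lowest, had them at 9.17, 10.04 and 8.14. The first array also had the highest macrophage mean of its group (10.09 against 8.86 and 9.10) and the highest endothelial mean (8.19 against 8.08 and 8.07). Its slow-fiber, pericyte and smooth muscle, adipocyte and Schwann cell means were the lowest of the group. The part of none of these lists in the Gclc, Gclm and Gstm2 values was tested. Mgst1 was highest, at 10.83, in the second SCI-ES 7 days array, which also had the highest adipocyte mean at 9.60 against 7.55 and 7.60 in the others of its group. In SCI-ES 3 days the second array likewise had the highest Mgst1 (10.00 against 8.17 and 8.53) and the highest adipocyte mean (8.95 against 7.52 and 7.84). The same arrays also had the highest macrophage means of their groups (9.62 against 8.90 and 8.24 at 7 days, 9.89 against 8.64 and 7.63 at 3 days), and the highest Schwann cell means (7.005 against 6.59 and 6.46, and 6.88 against 6.497 and 6.525). Their fibroblast means were the highest too (11.43 against 11.13 and 9.74, and 11.45 against 10.88 and 10.37). So were their endothelial means and their pericyte and smooth muscle means. Their slow-fiber, fast-fiber and satellite cell means were the lowest of their groups. The part of none of these lists in the Mgst1 values was tested. Gstm2 in the GA experiment never exceeded 8.86, and fast-fiber genes there averaged 8.18 to 10.63. The Pearson correlation of Gstm2 with the fast-fiber mean was 0.04 over those 18 arrays. Over the 15 arrays of the spinal cord experiment it was 0.864. Other lists varied with Gstm2 too. Over the 18 arrays the correlation was -0.898 with the neutrophil, 0.817 with the fibroblast and 0.717 with the pericyte and smooth muscle mean. Over the 15 arrays these were 0.085, 0.45 and -0.145. With the slow-fiber mean it was 0.339 over the 18 arrays and -0.706 over the 15. The part of none of these lists in the Gstm2 values was tested.

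**Figure D5:**
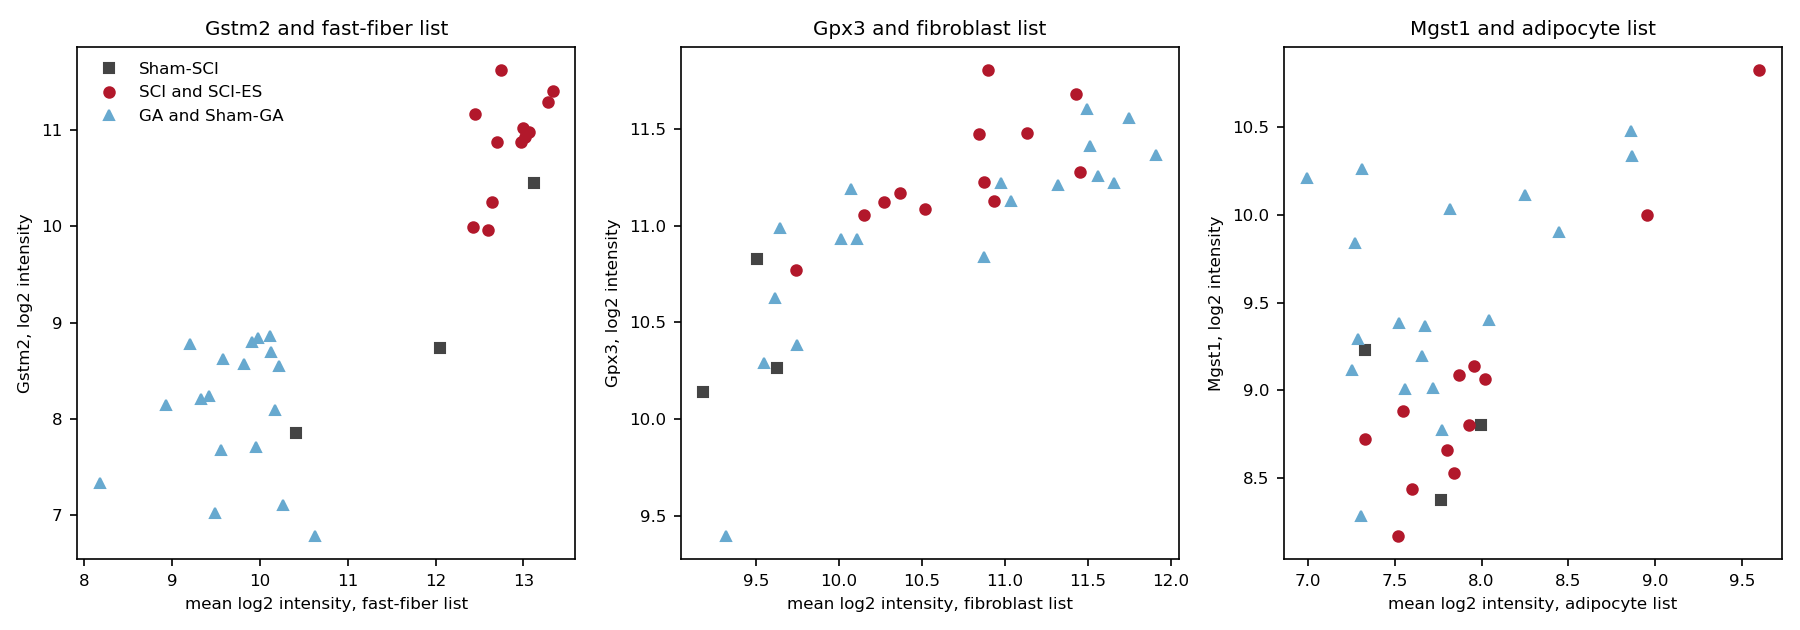
Log2 intensity of a gene (vertical axis) against the mean log2 intensity of a marker list (horizontal axis) over 33 arrays: Gstm2 and fast-fiber genes, Gpx3 and fibroblast genes, and Mgst1 and adipocyte genes. Squares are Sham-SCI, circles SCI and SCI-ES, triangles GA and Sham-GA. The Sham-SCI array with Gstm2 at 10.45 had fast-fiber genes at 13.12.

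Genes with the most similar profile were ranked among 14446 by the lower of 2 Pearson correlations, that over the 15 arrays of the spinal cord experiment and that over the 18 arrays of the GA experiment. The arrays share group differences and days, so these are descriptions. Gsr was closest to Txnrd1 (0.853), Tmbim1 (0.845) and Nqo1 (0.810). Gclm was closest to Fam13a (0.851), Sqstm1 (0.849) and Rabep1 (0.823), and Gclc to Mrto4 (0.832), Erlin1 (0.829) and Snu13 (0.796). Gpx3 was closest to the matrix protein genes Dpt (0.878), Ogn (0.877) and Mfap4 (0.859). Gstm2 was closest to Tmem53 (0.793), Sod3 (0.792) and C8g (0.789), and Gstm5 to Bace1 (0.816), Tmem53 (0.811) and Fam110b (0.795), so that Tmem53 was in both lists. Gpx1 had no neighbour this near by the lower correlation, the closest being Hsd3b7 (0.672), Mvb12a (0.635) and Gipc2 (0.628). For Hsd3b7 that was the value over the 18 arrays, where Gpx1 ranged only from 12.07 to 12.56. Over the 15 arrays it was 0.873. Mgst1 was closest to Prkar2b (0.905), Slc17a9 (0.888) and Sgpl1 (0.834), Gss to Ehd4 (0.804), Rps26 (0.794) and Ap1s1 (0.793), and Gpx4 to Rtn2 (0.763), Stard10 (0.736) and Fbxo41 (0.736).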

How the data were processed

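RNA of 33 soleus muscles was hybridised to Affymetrix rat arrays, 1 array per animal. The deposited values are log2 intensities per transcript cluster, which the authors made by RMA in oligo (background correction, quantile normalization and probe summary). The genome build is not given in the sources used here. RMA compresses differences of dim and of very bright probes, and no read depth exists, so the number of arrays limits the precision.

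Of 29214 rows, 15310 had 1 gene symbol in the platform annotation, 323 several and 13581 none. A gene was its brightest row over the 33 arrays (527 genes had more than 1 row), and genes with a mean under 3 in a fit were left out. Group means were compared with limma 3.58.1 in R 4.3.3 (lmFit, contrasts.fit, eBayes), with the 15 arrays of the spinal cord experiment in 1 fit, the 18 of the GA experiment in another and all 33 for differences between them. P-values were adjusted over all genes by Benjamini-Hochberg. The fit was tested on simulated data. The members and lists were chosen with earlier results of these data known. Named were all 10 members, from each pathway list the called genes with arrays that did not overlap (at most 3 per direction) and the extremes in SCI against Sham-SCI, and the 3 genes of most similar profile. Cell markers gave list means. Groups and days came from the sample labels. Alternatives were other filters, scalings, arrays in the fit and variance models, the methods' variance test, a replicate block and each array left out.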

Additional observations from a re-analysis of the deposited data

How the results depend on the processing

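Leaving out 1 array in turn gave 1 to 3 called members in SCI against Sham-SCI (2 with all arrays), 0 to 3 in SCI-ES 7 days against Sham-SCI (2 with all arrays) and 0 to 1 in GA against Sham-GA at 3 days (0 with all arrays). With 1 fit of all 33 arrays, 4 members were called in SCI against Sham-SCI and 4 in SCI-ES 7 days against Sham-SCI, as Gstm2 and Gsr joined Gpx1 and Gstm5. The methods' variance test gave 5 and 5 members in these comparisons when unadjusted and 0 and 0 after Benjamini-Hochberg adjustment, and 1 member, Gstm2, when unadjusted in SCI-ES 3 days against SCI. Its p-value for a gene asks whether any group of the spinal cord experiment differs and is shared by these comparisons. Only the fold change is that of the comparison, so these calls do not test SCI-ES 3 days against SCI or any other pair of groups. With only the groups of the contrast, 1 member was called in SCI-ES 7 days against Sham-SCI. The other settings kept the number of called members within 1.5 times in every comparison, with Gstm2 added to both when the genes of lowest variance were left out. The cause was not tested in any of these.

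Of 140 member differences, 56 changed sign when an array was left out, 13 of them also under another setting. The lowest unadjusted limma p among the 56 was 0.2966 in the main fit and 0.1026 in the fits where the sign had changed. Of those printed, the ranges were as follows. In SCI against Sham-SCI, Gpx4 went from -0.12 to 0.0525, Gclm from -0.20 to 0.0894 and Mgst1 from -0.0047 to 0.42. In SCI-ES 7 days against SCI, Mgst1 went from -0.35 to 0.84, Gpx1 from -0.16 to 0.26 and Gstm2 from -0.28 to 0.0695. In SCI-ES 1 day against SCI, Gstm2 went from -0.11 to 0.24, and it was -0.0488 after a further quantile normalization. In SCI-ES 7 days against Sham-SCI, Mgst1 went from -0.14 to 1.05 and Gss from -0.25 to 0.0643. Mgst1 went from -0.13 to 0.97 in GA against Sham-GA at 7 days and from -0.15 to 0.40 between 7 days and 1 day after surgery. The effect of stimulation minus that of GA at 1 day went from -0.41 to 0.0472 for Gstm5.

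The number of genes called among all tested moved more. Over the other settings it was 1 to 368 in SCI against Sham-SCI (58 in the main result), 3 to 386 in SCI-ES 7 days against Sham-SCI (101), 0 to 117, 0 to 42 and 0 to 26 after 1, 3 and 7 days of stimulation, 0 to 445, 0 to 632 and 0 to 147 for GA at 1, 3 and 7 days and 0 to 287 for their mean. Leaving out an array gave 5 to 65, 4 to 361, 0 to 27 at 1 day of stimulation, 1 to 182 and 0 to 1286 for GA at 1 and 3 days and 0 to 493 for the mean. For 7 days against 1 day after surgery the settings gave 1247 to 3262 and leaving out an array 1112 to 1381. Median centring moved the split of that comparison from 834 higher and 455 lower to 700 and 758, moved the all-gene median to -0.14, and called Gsr (-0.59), as did dropping the fold minimum.

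With the replicate number as a block, 26 genes were called in SCI against Sham-SCI, and 2 members were called there and in SCI-ES 7 days against Sham-SCI, 5 after surgery and 0 elsewhere. Arrays of the same number did not deviate together (correlations of -0.72 to 0.61), so the numbers were not read as pairs. Groups of 3 arrays leave wide intervals, and values near 0 in a comparison are not evidence of equal levels.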
